A study of Drosophila melanogaster with 2 samples.

Results

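The genes described here are 43 axon guidance genes of Drosophila melanogaster, taken from a fixed list of names and found in the Ensembl BDGP6 annotation. They are 43 of the 13945 protein-coding genes on the main chromosomes, and they comprise 10 ligands, 18 receptors, 9 adhesion proteins and 6 cytoplasmic effectors. The question was where tagged shuttle craft protein (stc) was found at these genes by chromatin immunoprecipitation and sequencing (ChIP-seq). Whole embryos of the strain stc-GFP, collected from 0 to 24 h, carried an stc-eGFP fusion, which an anti-GFP antibody recovered after shearing of chromatin to 200 to 800 bp. There was 1 group with 2 biological replicates, and a control experiment named in the labels was not analysed here. All embryonic tissues and stages are mixed, the protein carries a tag, and binding in neurons cannot be told apart from binding in other cells. Read depth is not given in the files, and neither is the protein's level.

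Growing axons are steered by secreted and membrane-bound cues, which are read by receptors on the growth cone and passed to the actin cytoskeleton by cytoplasmic adaptors, kinases and exchange factors. In the fly embryo, netrins attract and Slit repels commissural axons at the midline, while semaphorins, receptor tyrosine phosphatases and homophilic adhesion proteins guide and bundle motor axons. The stc protein is the fly relative of human NFX1 and has zinc fingers, and its gene is known to be needed in the embryonic nervous system.

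A peak is a stretch of genome that the authors called as rich in reads. What the reads were compared with in calling is not stated in the labels or files. The signal of a peak is the authors' own value for its strength, which serves here only to describe and rank peaks. Its summit is the point that they mark within it. A promoter summit is one within 250 bp of any annotated transcription start site (TSS) of the gene. A summit outside promoters lies in the gene or 5 kb either side of it and within 250 bp of no protein-coding TSS. Results rest on the conservative list of 3831 peaks that the series deposits for the pair of replicates, beside the thresholded lists of replicate 1 (2767 peaks on the main chromosomes) and replicate 2 (3806 peaks).

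The sequences that follow are windows that reach 50 bases either side of summits of the conservative list, on the plus strand of dm6, with the bases read from the RefSeq Release 6 assembly. Promoter summits are shown to let their base composition be compared with that of some strong summits inside genes, which come last. Those are not the strongest of all, since the intron summits of fra (signal 297), ena (233) and sli (226) are not shown. Capitals mark matches on either strand to the searched letters GAGAG (the GAGA factor repeat), to CGATA, to the RFX-type letters GTTGCC and to the E-box CAGCTG.
trio promoter summit (chr3L:1007975-1008075): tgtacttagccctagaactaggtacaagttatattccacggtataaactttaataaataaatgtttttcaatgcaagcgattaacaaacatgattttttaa
PlexA promoter summit (chr4:1027236-1027336): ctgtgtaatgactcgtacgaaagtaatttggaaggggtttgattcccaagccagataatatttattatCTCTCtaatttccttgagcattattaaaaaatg
Fas2 promoter summit (chrX:4205803-4205903): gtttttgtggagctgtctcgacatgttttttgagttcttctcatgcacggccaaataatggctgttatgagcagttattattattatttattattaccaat
Lar promoter summit (chr2L:19587141-19587241): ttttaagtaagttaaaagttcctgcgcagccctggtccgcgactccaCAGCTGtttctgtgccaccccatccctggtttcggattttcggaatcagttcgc
Ptp99A promoter summit (chr3R:29462066-29462166): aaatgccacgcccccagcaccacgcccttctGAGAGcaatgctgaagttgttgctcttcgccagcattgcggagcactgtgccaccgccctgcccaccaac
Sema1a promoter summit (chr2L:8542017-8542117): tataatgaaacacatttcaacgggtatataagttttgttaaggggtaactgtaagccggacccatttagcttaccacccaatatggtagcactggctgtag
Ten-m promoter summit, the weaker of a pair (chr3L:22407941-22408041): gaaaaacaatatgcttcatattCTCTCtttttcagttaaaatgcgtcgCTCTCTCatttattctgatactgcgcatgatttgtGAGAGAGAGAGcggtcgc
Sema1a intron summit (chr2L:8575146-8575246): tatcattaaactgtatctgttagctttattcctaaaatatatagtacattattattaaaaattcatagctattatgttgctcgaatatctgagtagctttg
Ptp10D intron summit (chrX:11623077-11623177): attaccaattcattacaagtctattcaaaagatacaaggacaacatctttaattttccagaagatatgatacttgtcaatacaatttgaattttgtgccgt
NetA intron summit (chrX:14627558-14627658): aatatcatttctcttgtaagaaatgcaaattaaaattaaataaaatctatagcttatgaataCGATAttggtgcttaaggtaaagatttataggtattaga
Fas3 intron summit (chr2L:18325248-18325348): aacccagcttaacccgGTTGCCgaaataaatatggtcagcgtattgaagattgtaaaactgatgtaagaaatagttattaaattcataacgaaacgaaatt

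The Ten-m window held 7 overlapping matches to GAGAG or its complement, the most of those printed, while the trio, Fas2 and Sema1a promoter windows held none of the 12 motifs searched. The GC content was 27.7% at the trio summit and 32.7% at the PlexA summit, against 51.5% at Lar and 61.4% at Ptp99A. The intron windows lay between 22.8% at NetA and 32.7% at Fas3. A match is a description of the letters and not a site.

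Promoter summits were found in the conservative list at 13 of the 43 genes (30.2%, exact Clopper-Pearson 95% confidence interval 17.2 to 46.1), where 10.2% of all protein-coding genes had one. In replicate 1's own list the count was 5 of 43 (11.6%, interval 3.89 to 25.1), beside 8.18% of all genes. In replicate 2's list it was 16 of 43 (37.2%, interval 23.0 to 53.3), beside 10.8%. The share in replicate 1 was thus near that of all genes, and the shares in the conservative list and in replicate 2 were above it. Both replicates' own lists held a promoter summit at 3 members, PlexA, Ten-a and trio (6.98%), beside 6.28% of all genes. These shares have no test, and the intervals cover counting error only.

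Genes with many start sites have more chances of a promoter summit, and promoter counts were also set beside those of genes of the same length. If members had been called at the rate of all genes of their length, 6.62 would have had a promoter summit in the conservative list, 4.16 in replicate 1 and 8.75 in replicate 2, against the 13, 5 and 16 counted. By number of start sites the conservative list would have given 5.76. A promoter summit was present at 6 of 23 members with 1 TSS (7.51% of all such genes), at 3 of 14 with 2 to 3 (16.4%) and at 4 of 6 with 4 to 6 (29.0%). No member had 7 or more, a class in which 27.7% of genes were called. By role, the counts against those from length were 2 against 1.58 for ligands, 5 against 2.69 for receptors, 5 against 1.51 for adhesion proteins and 1 against 0.837 for effectors. With between 6 and 18 genes in a role, the intervals of the shares overlap, from 2.52 to 55.6% for ligands and from 21.2 to 86.3% for adhesion proteins.

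**Figure D1:**
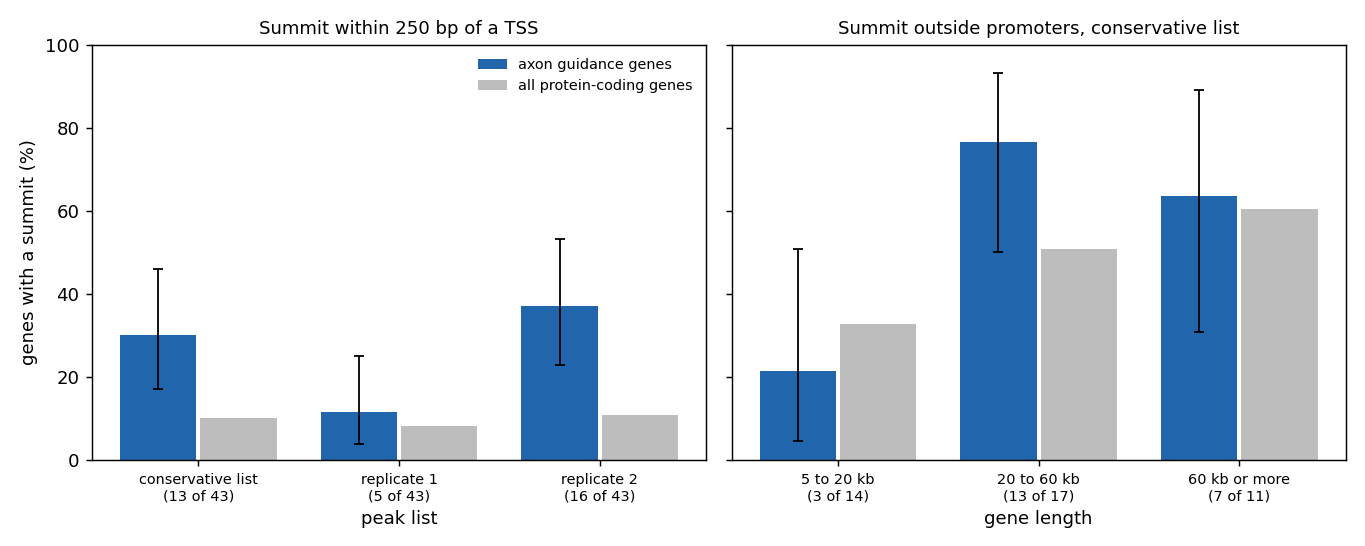
Share of genes with a summit (vertical axis, percent) among the 43 axon guidance genes (blue, with exact 95% confidence intervals) and among all protein-coding genes (grey), by peak list for promoter summits (left) and by gene length for summits outside promoters (right). The promoter share was 30.2% in the conservative list, 11.6% in replicate 1 and 37.2% in replicate 2. The 1 member under 5 kb is not drawn.

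Among the ligands, 2 had a promoter summit. Sema1a, a transmembrane semaphorin, had 1 with a signal of 84.1, 80 bp upstream of a start site, which had a signal of 38.0 in the ranked list of replicate 1 and 52.6 in that of replicate 2. Its peak was in neither replicate's thresholded list. Replicate 2's list held a different Sema1a summit, 1241 bp away at another start site, with a signal of 45.6. Sema5c, another semaphorin, had a summit 222 bp upstream with a signal of 25.1, the weakest promoter summit of the 13 genes. Replicate 1 had a ranked peak of 47.3 at that Sema5c summit, which is not in its thresholded list. Replicate 2's own Sema5c summit lay 247 bp away, with a signal of 49.6. Replicate 1's list had no promoter summit at either gene, and replicate 2's summits lay away from those of the conservative list.

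Among the receptors, 5 had a promoter summit. PlexA, the receptor of class 1 semaphorins, had the strongest of these at 236, ranked 710 in the list, 185 bp upstream of its start site. The PlexA signal was 163 in replicate 1 and 68.9 in replicate 2, so that the replicate with the higher value was the one that was lower at most other members. The receptor unc-5, which mediates repulsion by netrins, had a summit of 140 at 104 bp upstream of an internal start site. The unc-5 signal was 61.2 in replicate 1 and 83.7 in replicate 2. That peak was in replicate 1's list only, with the higher signal in the other replicate. Dscam1, an immunoglobulin receptor with very many splice forms, had a summit of 110 at 15 bp downstream, with 32.8 in replicate 1 and 84.8 in replicate 2. Lar, a receptor tyrosine phosphatase, had a summit of 89.5 at 35 bp upstream of an internal start site, with 42.2 and 50.6. Ptp99A, of the same class, had a summit of 88.5 in a coding exon, 244 bp downstream of an internal start site, with 44.5 and 38.5. Replicate 2's list counted Ptp99A through another summit, of 93.2, at a different start site. Of these 5, PlexA was the only one whose peak overlapped a peak in both replicates' thresholded lists.

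Among the adhesion proteins, 5 had a promoter summit. Ten-a, a teneurin of synaptic partner matching, had 1 of 161 at 16 bp upstream of an internal start site, with 72.3 in replicate 1 and 84.9 in replicate 2. Ten-m, the other fly teneurin, had summits of 88.9 and 27.3 at 73 bp downstream and 128 bp upstream of its start site, both overlapping 1 replicate 2 peak of 72.4. The leucine-rich repeat proteins trn and caps, which are known from motor axon target choice, had summits of 140 and 82.8 at 33 and 46 bp downstream. The trn signal was 42.8 in replicate 1 and 91.3 in replicate 2. The caps signals of 39.5 and 45.0 were closer together. Fas2, the fly relative of NCAM on motor axon bundles, had summits of 108 and 40.5 at 240 and 39 bp downstream. The replicates split at Fas2, since the stronger summit had a ranked peak only in replicate 1 (75.4) and the weaker only in replicate 2 (49.4). In replicate 1's own list the Fas2 summit fell just outside the promoter window. Among the effectors, trio, an exchange factor for Rac, had the strongest promoter summit of all members, at 241 and rank 682, with 131 in replicate 1 and 108 in replicate 2.

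The trio summit lay exactly 250 bp upstream of an internal start site, at the edge of the promoter window. The other summits near that edge were Ptp99A at 244 bp and Fas2 at 240 bp inside it, and Pak and a second Ptp99A summit outside it, at 261 and 262 bp upstream. The tutl summit at 381 bp upstream and the dnt summit at 480 bp downstream were next. A window of 100 bp left 8 members with a promoter summit, without PlexA, Ptp99A, Sema5c, trio and unc-5. Counting only the start site farthest 5' also left 8, without Lar, Ptp99A, Ten-a, trio and unc-5, whose promoter summits lay at internal start sites.

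Over all 15 promoter summits the median signal was 89.5 (range 25.1 to 241), below the median of 141 of the 1190 promoter summits in the conservative list. Both replicates' lists held the peak for 3 of the 15, replicate 1's alone for 3, replicate 2's alone for 5 and neither for 4, where 56.5% of all promoter peaks were in both. The 6 members that replicate 2's list added to the conservative list were Abl, comm, dnt, drl, robo2 and sli. Their summits in that list had signals of 97.9 at comm, 91.4 at drl, 79.0 at robo2, 64.5 at Abl, 52.6 at sli and 8.01 at dnt. In the ranked list of replicate 1, the strongest promoter peak was 11.7 at comm, 10.3 at drl and 26.9 at robo2. The same promoters had ranked peaks of 105, 110 and 103 in the list behind the conservative one. These 3 were kept out of it by irreproducible discovery rates (IDR, a measure of how well peak ranks match between replicates) of 0.728, 0.730 and 0.734, against the threshold of 0.01. They encode a sorting protein that keeps Robo off the growth cone (comm), a Wnt5 receptor (drl) and a Slit receptor (robo2). The series also deposits a larger thresholded list of 5084 peaks, with promoter summits at 16 members, beside 13.4% of all genes. It held promoter summits at comm, drl, robo2, Abl and Pak, which the conservative list lacked, and none at Sema5c and unc-5.

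Of the 30 members with no promoter summit in the conservative list, 20 had a peak there in the ranked list behind it, with signals from 28.3 to 110 and a median of 51.7. That ranked list holds 108213 peaks on the main chromosomes, with a median signal of 22.0. The same share over all genes was not counted, so nothing particular to members is read from the 20. The base composition of promoter peaks differed with the lists that held them, and so did their signal. The median GC content of such windows was 45.5% over the 15 member promoter summits and 32.7% over all 1190. Over all promoter peaks it was 28.7% for those in both lists, 30.7% in replicate 1's alone, 44.6% in replicate 2's alone and 42.6% in neither. The median signals of the same groups were 219, 111, 102 and 80.9. Over the member promoter peaks the GC medians were 32.7, 35.6, 51.5 and 44.1%, from 3, 3, 5 and 4 peaks. Single peaks went the other way, with Ten-a in both lists at 55.4% and Sema5c in neither at 31.7%. The part of base composition or of signal in the promoter counts was not tested. GAGAG was present in 6 of the 15 windows (40.0%) and in 10.8% of all promoter summit windows. The 6 include the weaker summits of Fas2 (40.5) and Ten-m (27.3), each beside a stronger summit whose window had no GAGAG. In the promoter of each gene (250 bases before its outermost TSS and 50 after it), GAGAG was present at 62.8% of members and 29.8% of all genes, and the palindrome TATCGATA, known as the DNA replication-related element, at 23.3% and 9.37%. Median GC content of those promoters was 43.2% at members and 37.9% over all genes. In the same promoters CGATA was present at 51.2% of members and 47.5% of all genes. At the summits themselves, TATCGATA was in none of the 15 member promoter summit windows, beside 2.02% of all promoter summit windows. It was in none of the 83 member summit windows either. CGATA was in 6.67% of the 15 windows, beside 15.7% of all promoter summit windows. CGATA also lies within TATCGATA, so matches to the pair are not separate. The other letters searched were GGTCACAC (the core of the M1BP site), CAGGTAG (of Zelda), the E-box letters CAGCTG and also CACGTG, the RFX-type GTTGCC, the class II X-box start CCTAGCAAC, the AP-1 letters TGACTCA, and the homeodomain cores CAATTA and then TAATTA. None of the 15 promoter summit windows held TAATTA or CAATTA, beside 12.2% and 9.41% of all promoter summit windows. Over all 83 member summits, GTTGCC was present in 8.43% of windows, beside 3.58% of all 3831.

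**Figure D2:**
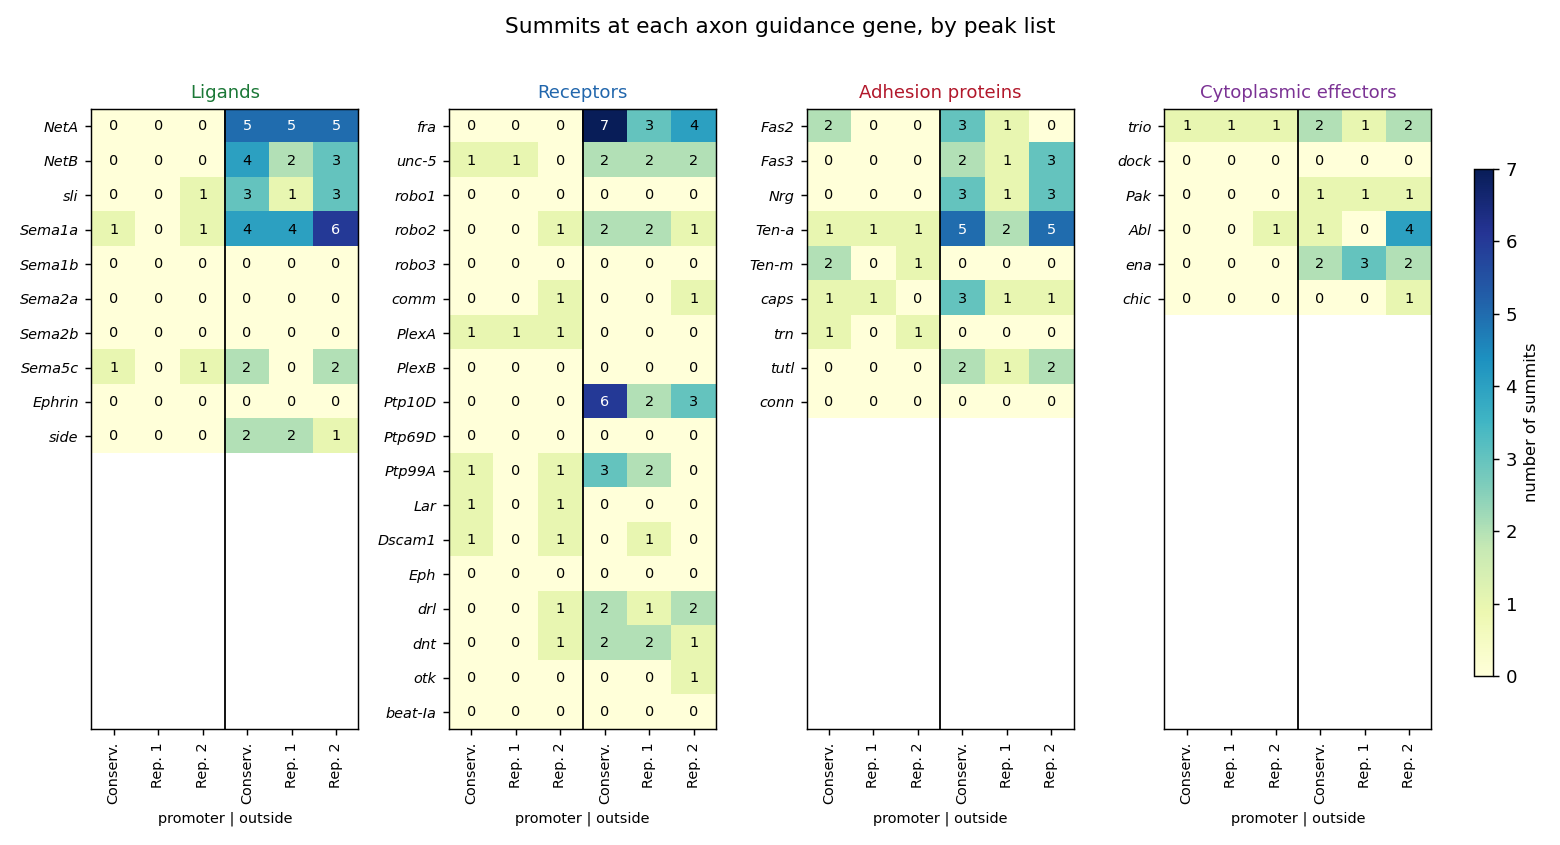
Number of summits at each of the 43 genes by role, within 250 bp of a TSS (left of each panel's line) and outside promoters (right), in the conservative list and in each replicate's own list. The highest count is 7, at fra outside promoters in the conservative list, where 15 members have no summit of either kind.

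Outside promoters, 23 of the 43 genes (53.5%, exact 95% interval 37.7 to 68.8) had a summit in the conservative list, 22 in replicate 1's and 24 in replicate 2's. Over all genes the shares were 21.0, 16.4 and 20.7%, but members are long. Their median length was 35.1 kb (3.81 to 292), against 2.17 kb for all genes. At the rates of all genes of the same length, 20.04 members would have been called in the conservative list, 17.2 in replicate 1 and 19.7 in replicate 2. The counts of members were thus near what their lengths gave. Both replicates' lists held a summit outside promoters at 19 members (44.2%), beside 13.6% of all genes, a comparison with no allowance for length. Each replicate's list shared 21 of the 23 members with the conservative list, where at promoters replicate 1 shared 5 of 13 and replicate 2 10 of 13. The searched stretch is far longer outside promoters, so different summits can count for the same gene. Of the 68 peaks themselves, 32 were in both replicates' lists. Over all genes, both replicates' lists called 1893 outside promoters, beside 2922 in the conservative list. At promoters these counts were 876 and 1429. The same sharing by single replicate was not counted over all genes.

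By length, 0 of 1 member under 5 kb (15.0% of all such genes), 3 of 14 of 5 to 20 kb (32.9%), 13 of 17 of 20 to 60 kb (50.8%) and 7 of 11 of 60 kb or more (60.4%) had a summit outside promoters. By role, the counts against those from length were 6 against 4.83 for ligands, 7 against 8.0 for receptors, 6 against 4.70 for adhesion proteins and 4 against 2.51 for effectors. All 6 members on the X chromosome, NetA, NetB, Ptp10D, Fas2, Nrg and Ten-a, had one. All 6 exceed 20 kb, and 63.1% of the 198 X-linked genes of 20 kb or more were called. None of the 4 members on chromosome 4, Ephrin, Eph, PlexA and PlexB, had a summit outside promoters, which with 4 genes allows a share of up to 60.2%.

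The 23 genes held 68 summits outside promoters, 2.79 per 100 kb searched, beside 2.34 over all genes. The same densities were 1.68 beside 1.66 in replicate 1 and 2.42 beside 2.20 in replicate 2. Members of 20 to 60 kb held 40 of the 68, among them 7 at fra, 6 at Ptp10D and 5 at NetA. Their density was 5.01 per 100 kb beside 2.80 for all genes of that length. Members of 60 kb or more held 1.70 beside 1.75, and the 14 members of 5 to 20 kb held 1.84 beside 2.88. In the 5 to 20 kb class replicate 1 gave 0.738 beside 2.10 and replicate 2 gave 2.95 beside 2.79. In the 20 to 60 kb class they gave 3.0 beside 1.94 and 4.13 beside 2.57. A first intron held 30 of the 68 summits and a later intron 28, with 2 in coding exons, 1 in a 3' UTR, 3 upstream and 4 downstream of the gene. The member's own TSS was the nearest protein-coding TSS for 40 of the 68, and fra, Nrg and trio had none of these 40. The median signal was 114 (2.55 to 297), beside 121 for all 2641 peaks away from TSSs, and 47.1% were in both replicates' lists, beside 51.7%. Median GC content was 31.7% at member summits and at all such summits. Of these summits, 7 lie within 300 bp of a stronger one, with signals of at most 27.1.

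Ligands held 20 summits outside promoters, at NetA, NetB, sli, Sema1a, Sema5c and side. NetA, a netrin, had 5, with signals of 111, 120, 132, 170 and 200, from 18.9 to 41.3 kb from its start site. All 5 NetA peaks were in both replicates' lists, though for the summits of 170 and 200 the nearest start site was that of sbm. At the summit of 200, 26.2 kb into the gene, replicate 1 had 98.3 and replicate 2 had 103, while at the summit of 170 they had 46.4 and 133. The adjacent netrin gene NetB had 4 summits, with 2.55 as the weakest and 173, 31.6 kb in, as the strongest. At that NetB summit replicate 1 had 63.1 and replicate 2 had 106. The start site nearest to it was that of hog, not of NetB.

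The Slit gene sli had 3 summits, the strongest of 226 in its first intron, 3.73 kb from a start site, with 110 in replicate 1 and 122 in replicate 2. Sema1a had 4, the strongest of 286 in a later intron, 31.9 kb from a start site, with 126 and 160. The others at Sema1a were 118, 89.7 and 83.1, and of the 4 peaks the 286 and the 118 were in both replicates' lists. Sema5c had summits of 87.2 and 79.9, neither of them in both replicates' lists. The gene side, which encodes an attractant on muscle for motor axons, had summits of 161 and 96.3, 30.2 and 10.6 kb into the gene. The summit of 161 had near-equal signals of 81.6 and 82.3 in the replicates.

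Receptors held 24 summits outside promoters. The netrin receptor fra had 7, all in its first intron and none at its promoter. Its strongest, 14.8 kb in, had a signal of 297 and rank 485, the highest of any member summit. There replicate 1 had 98.9 and replicate 2 had 186. The other main fra summits were 169, 135 and 85.6, and the remaining 3, at 6.62 to 6.91, each lay beside one of those. For all 7 the nearest start site was that of CG33752, not of fra. The receptor tyrosine phosphatase gene Ptp10D had 6 summits, the strongest of 215 at 1.11 kb from its start site, with 96.4 in replicate 1 and 112 in replicate 2. Its others were 139, 137, 94.4, 58.3 and 7.68, of which the 137 was the only one in both replicates' lists. The remaining receptor genes had 2 or 3 summits each, with top signals of 156 at Ptp99A, 128 at unc-5, 126 at robo2, 121 at drl and 105 at dnt, another Ryk-type receptor.

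**Figure D3:**
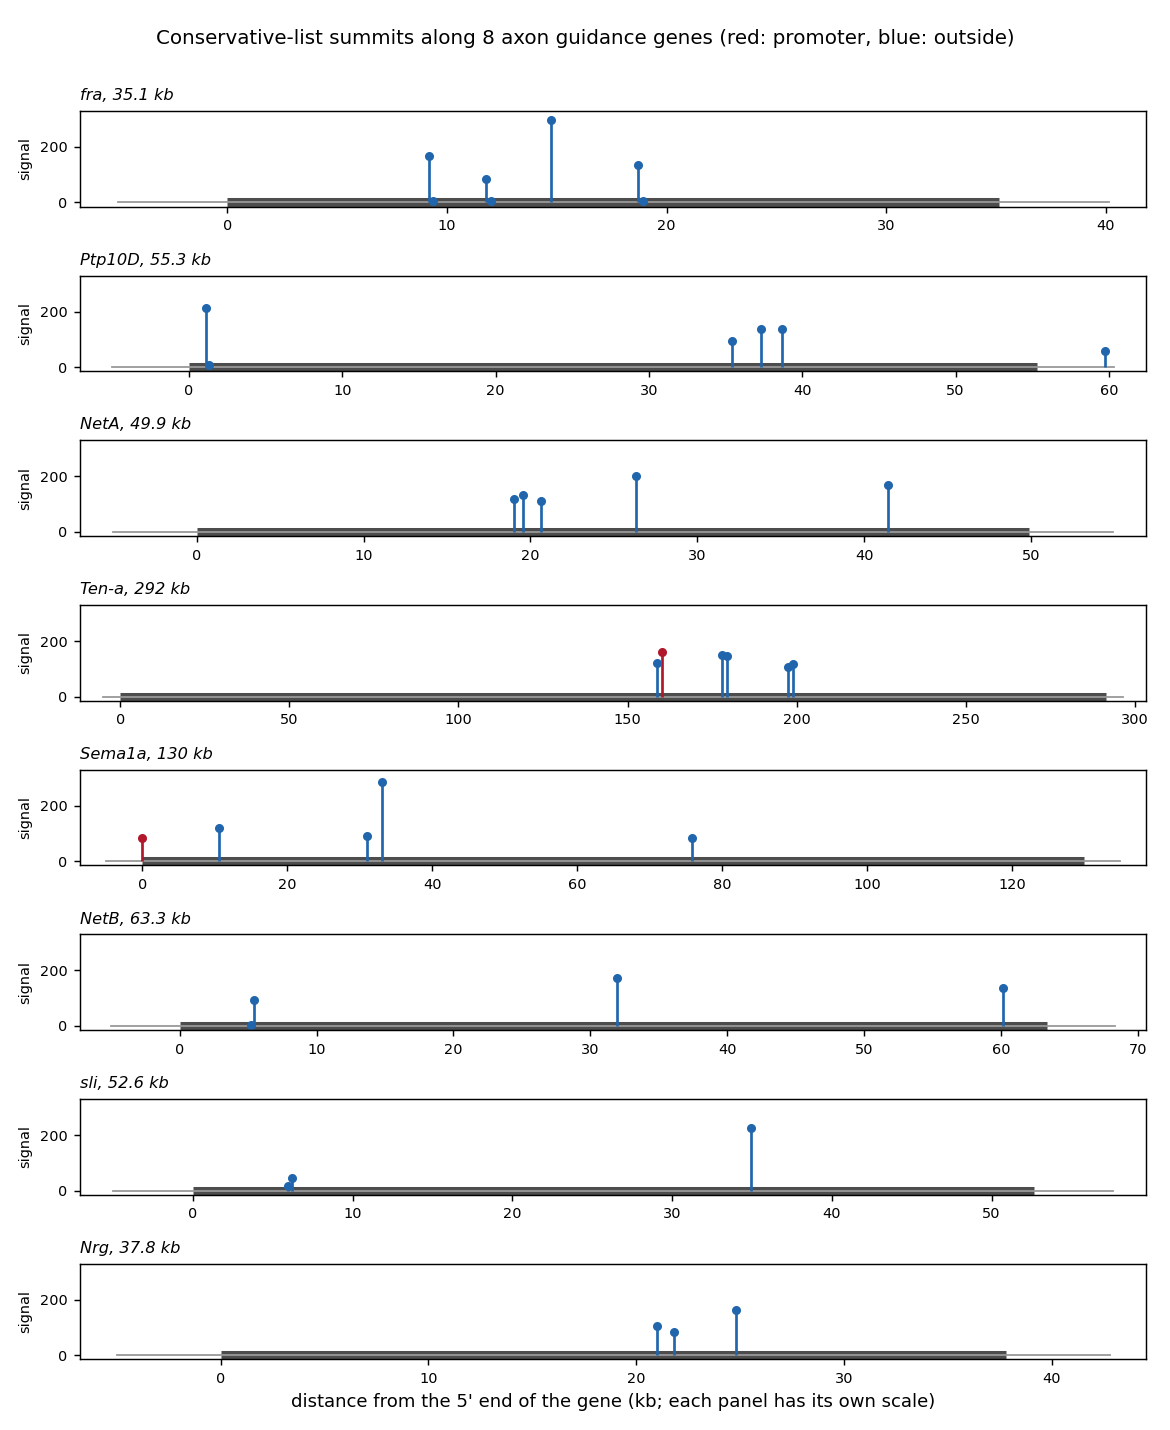
Signal of conservative-list summits (vertical axis) along the 8 genes with the most summits outside promoters, where sli and Nrg were taken before Ptp99A, Fas2 and caps, which also have 3, for their higher top signal, by distance from the gene's 5' end (kb), with promoter summits in red and others in blue. The thick bar is the gene and the thin line the 5 kb either side. The fra summits, up to 297, sit between 9.16 and 18.9 kb into the gene, while those of Ten-a sit in the middle of a 292 kb gene.

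Adhesion proteins held 18 summits outside promoters. Ten-a had 5, with signals of 149, 146, 122, 119 and 105. The 149 and the 146 were in both replicates' lists and the other 3 in replicate 2's alone. At the summit of 149 replicate 1 had 56.6 and replicate 2 had 85.3. Nrg, the fly relative of L1, had 3 summits in introns, of 162, 104 and 85.5, with 85.3 and 80.3 in the replicates at the strongest. Fas3, a homophilic adhesion protein, had summits of 188 and 112 in its first intron, with 104 in replicate 1 and 77.9 in replicate 2 at the strongest. Fas2 and caps had 3 summits each and the immunoglobulin protein gene tutl 2, with top signals of 86.1, 147 and 116. None of the 3 Fas2 peaks was in either replicate's list.

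Effectors held 6 summits outside promoters, at 4 genes. The actin regulator ena had 2, of 233 in its first intron and 162 downstream of the gene, both in both replicates' lists. At the summit of 233 replicate 1 had 98.2 and replicate 2 had 123. The genes trio, Pak and Abl had top signals of 147, 161 and 107. The Pak summit, 261 bp upstream of a start site of this Rac-dependent kinase, had 92.9 in replicate 1 and 61.6 in replicate 2, and the Abl summit, at a tyrosine kinase gene, 41.0 and 52.5.

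Across the list, 8 genes had summits both at a promoter and outside, namely Sema1a, Sema5c, unc-5, Ptp99A, Fas2, Ten-a, caps and trio. Promoter summits alone were found at PlexA, Lar, Dscam1, Ten-m and trn, and summits outside promoters alone at 15 genes. The remaining 15 had neither, and for 12 of these no summit was in any of the 3 lists. Those were the semaphorins Sema1b, Sema2a and Sema2b, Ephrin with its receptor Eph, the Slit receptors robo1 and robo3, PlexB, the phosphatase Ptp69D, the Side partner beat-Ia, the leucine-rich repeat protein conn and the adaptor dock. The other 3, comm, otk (a plexin-associated receptor) and chic (profilin), had summits in replicate 2's list. Among the netrin genes, NetA, NetB, fra and unc-5 (27.8 to 63.3 kb long) all had a summit in the conservative list. Among the Slit genes, sli (52.6 kb) and robo2 (40.4 kb) had one, and robo1 (8.45 kb) and robo3 (40.2 kb) did not. Among the semaphorin and plexin genes, Sema1a (130 kb), Sema5c (14.3 kb) and PlexA (17.2 kb) had one, and Sema1b (10.7 kb), Sema2a (33.3 kb), Sema2b (45.2 kb) and PlexB (11.3 kb) did not. Neither Ephrin (8.37 kb) nor Eph (11.8 kb) had one. Since the share of genes called outside promoters rises with length and each set holds few genes, no difference between these sets is drawn. No summit in a list says only that none passed the authors' threshold there.

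**Figure D4:**
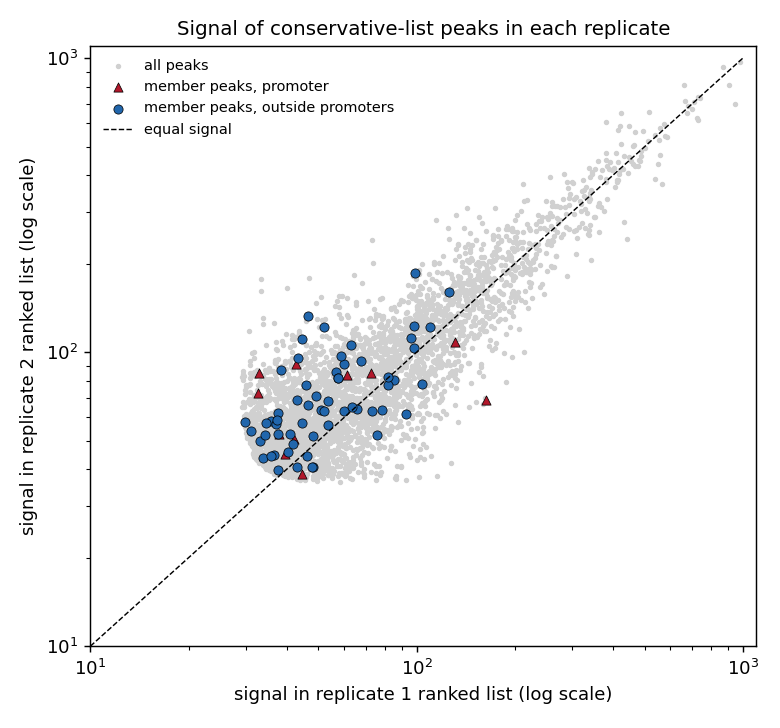
Signal of the overlapping ranked peak in replicate 1 (horizontal, log scale) and replicate 2 (vertical, log scale) for conservative-list peaks, with member peaks at promoters as red triangles and outside promoters as blue circles, all peaks in grey and a dashed line at equal signal. Of the 71 member peaks drawn, 56 lie above the line, with PlexA the triangle farthest below it.

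A signal in both replicates' ranked lists was available for 71 of the 83 member peaks. It was higher in replicate 2 for 56 of them, with a median ratio of replicate 2 to replicate 1 of 1.27. Over all 3614 such peaks, 68.4% were higher in replicate 2, with a median ratio of 1.16. At promoters 8 of 11 member peaks were higher in replicate 2, with a median ratio of 1.20, and outside promoters 48 of 60, with 1.28. How these signals were scaled between replicates is not stated in the labels or files.

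The other pathway genes, 64 genes of the same roles outside the list, had a promoter summit in 12 cases (18.8%, exact interval 10.1 to 30.5) and a summit outside promoters in 24 (37.5%, 25.7 to 50.5) in the conservative list. Over all genes those shares were 10.2 and 21.0%, a comparison with no allowance for length. These outside genes include long ones, such as CadN (131 kb) and fz2 (94.4 kb), so no excess is read from it. In replicates 1 and 2 their promoter counts were 7 (10.9%) and 18 (28.1%), beside 8.18 and 10.8% of all genes. Their strongest promoter summits were at Mtl (1145), a Rac-related GTPase, Src64B (401), a Src kinase, vilse (254), a GTPase-activating protein of Slit signalling, the phosphatase Ptp36E (246), the cytoskeletal linker shot (176), the integrin subunit if (124), Abi (123), of the actin-regulating WAVE complex, and the adhesion protein Nrt (120). Effectors were 7 of the 12, and 7 of 25 effectors were called (28.0%, interval 12.1 to 49.4). The list above had 1 of 6 (16.7%, interval 0.421 to 64.1), and the intervals overlap. The promoter signal of Mtl exceeded that of every member, whose highest was 241. These outside genes had 2.26 summits per 100 kb outside promoters in the conservative list, beside 2.79 for the 43 genes and 2.34 over all genes. The order was reversed in replicate 1, with 1.77 beside 1.68 for the 43 genes, and in replicate 2 it was 2.14 beside 2.42.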

How the data were processed

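Peaks from stc-eGFP ChIP-seq of whole embryos were analysed in 2 biological replicates of 1 group, per the labels. The deposited files analysed here are peak lists on dm6, per the labels. Which aligner and which program for peak calling served is not stated in the labels or file headers. The signal of each peak, the score, and the −log10 of the IDR and of the q-value, are the authors' deposited values. All peaks in thresholded lists have an IDR of 0.01 or less, and depth is unknown.

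Members were matched to Ensembl BDGP6.54, release 115 (conn by a RefSeq synonym, as Con). Among the other pathway genes fmi, vilse and slik were matched in the same way, as stan, RhoGAP93B and Slik. All peak ends lay within the lengths of the RefSeq Release 6 chromosomes, so its sequence was used. A summit counted for every gene whose window held it. A peak was in a replicate's list when it overlapped a peak there by at least 50% of the shorter. Background shares are over all protein-coding genes on the main chromosomes. Counts from length sum the shares of all genes in bins of under 5, 5 to 20, 20 to 60 and 60 kb or more. Scripts ran in Python 3.11.15 with NumPy 2.4.6, pandas 2.3.3, SciPy 1.17.1 and matplotlib 3.10.9, and the counting was tested on simulated peaks. With 1 group, and the control experiment named in the labels not analysed here, no test between samples was made.

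The members, roles, lists and motifs were chosen with earlier results of these data known. Full values were to be given for members with a promoter summit and for the 8 with the most summits outside promoters, ties going to the higher top signal. Other members are named with fewer values. Among other pathway genes up to 8 with promoter summits are named, by signal. Sequence windows shown are fewer than that rule allows, leaving out those with over 30 bases of UTR and those on arm 2R, and also Sema5c.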

Additional observations from a re-analysis of the deposited data

How the results depend on the processing

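The number of members with a summit outside promoters (23) stayed within 1.5 times under every alternative run, from 18 to 27, but the share of all genes beside it (21.0%) did not. That share was 7.66% without flanks (23 members), 9.87% by nearest TSS only (20) and 32.0% with flanks of 10 kb (26). The number with a promoter summit (13) did not. Without 1 replicate, that is by the other replicate's own list, it ranged from 5 to 16, and the number of summits outside promoters (68) from 41 to 59. Keeping only peaks found in both replicates' lists gave 3 members and 32 summits, and an IDR of 0.001 gave 5 and 32. Promoter members came to 8 with a window of 100 bp, and to 8 with only the TSS farthest 5'. Assigning each summit only to the gene with the nearest TSS left 40 summits outside promoters, by construction. All genes were called at promoters in 6.35% with peaks of both lists, 6.4% at the stricter IDR, 4.22% at 100 bp and 8.67% with the farthest TSS. For the lists and the IDR the cause was not tested. Leaving out summits within 300 bp of a stronger one, an alternative chosen after seeing the data, left 13 and 23 members and 61 summits. Of 98 other counts, by role and of shared peaks, 78 stayed within 1.5 times. No paired analysis was possible because there is 1 group. Unknown depth limits what a missing peak can show.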
